A study of Mus musculus with 9 samples.

Results

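The genes described here encode the proteins of the cytoplasmic ribosome. They were taken by name from the counted genes: protein-coding genes called Rpl or Rps with a number and at most one further letter or l, together with Rplp0, Rplp1, Rplp2 and Rpsa. Kinases of the Rps6k family and names ending in -ps were left out. The rule found 80 of the 22396 genes in the count table, 49 of the large subunit and 31 of the small subunit. Of these, 77 had enough counts to be tested, 46 large and 31 small. Rpl3l, Rpl10l and Rpl39l, copies known from muscle or testis, had 0 counts in all 9 libraries.

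Ribosomal proteins assemble with ribosomal RNA into a small subunit, which reads the mRNA, and a large subunit, which joins the amino acids. Their mRNAs are short, abundant and carry a run of pyrimidines at the start, the TOP element, through which mTOR signalling controls their translation. Most have processed pseudogenes of nearly the same sequence, so the assignment of reads between a gene and its copies is uncertain.

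RNA bound to the RNA sensor RIG-I was sequenced after immunoprecipitation with an antibody to FLAG. The cells were B16F10 mouse melanoma cells, labelled cell line B16 and genotype WT, that stably carried FLAG-tagged RIG-I in every group. The groups received a lentiviral shRNA and puromycin selection: shCtr as control, or shOSGEP#1 or shOSGEP#2 against Osgep, the enzyme subunit that makes the tRNA modification t6A. Each group had 3 libraries, which the methods describe as independent transductions.

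Library totals were 40333037, 47750758 and 41805753 counts for shCtr and 34551436, 50224299 and 30697653 counts for shOSGEP#1. For shOSGEP#2, replicates 1 and 3 held 25460689 and 14914731 counts, while replicate 2 held 568995. That shallow library was kept out of the fitted comparisons, and its values are given apart. No input RNA was analysed here, so a change in binding and a change in mRNA level cannot be told apart. In these bulk libraries, fewer cells and less RNA per cell cannot be told apart either.

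Osgep itself checked the labels. In CPM, counts per 1000000 counts of the library, Osgep stood at 19.1, 19.9 and 15.5 in shCtr and at 3.76, 1.15 and 1.53 in shOSGEP#1. In shOSGEP#2 it stood at 0.0786 and 2.88 in replicates 1 and 3, and it had 0 counts in replicate 2, which allows up to 5.27 CPM. Every knockdown library lay below every shCtr library. The log2 fold change against shCtr was −3.10 (SE 0.73, edgeR, Benjamini-Hochberg adjusted p = 0.0128) for shOSGEP#1. For shOSGEP#2 it was −3.84 (SE 0.93, edgeR, Benjamini-Hochberg adjusted p = 0.0150). Neither passed the threshold of adjusted p under 0.01 used for calling genes. Leaving out each library in turn moved the edgeR adjusted p, after Benjamini-Hochberg, between 0.00092 and 0.0543 for shOSGEP#1 and between 0.00134 and 0.0446 for shOSGEP#2. The log2 fold change for shOSGEP#1 then ranged from −3.77 to −2.79, and that for shOSGEP#2 from −7.86, without replicate 3, which leaves 2 counts of Osgep in the group, to −2.78, without replicate 1. The threshold was passed for shOSGEP#1 without shOSGEP#2 replicate 1 or 3, and for shOSGEP#2 without shOSGEP#2 replicate 3.

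Ddx58, which encodes RIG-I, had 180, 184 and 278 CPM in shCtr. It had 232, 216 and 327 CPM in shOSGEP#1 and 402 and 429 CPM in shOSGEP#2 replicates 1 and 3. In the shallow replicate 2 it had 0 counts, which allows up to 5.27 CPM. The shOSGEP#1 values overlapped the shCtr values, those of shOSGEP#2 replicates 1 and 3 lay above them, and replicate 2 lay below. The log2 fold change on 8 libraries was 0.26 (SE 0.21, edgeR, Benjamini-Hochberg adjusted p = 0.427) for shOSGEP#1 and 0.86 (SE 0.23, edgeR, Benjamini-Hochberg adjusted p = 0.0239) for shOSGEP#2. RNA of the FLAG-RIG-I construct and of the cells' own gene was not separated in these counts. They do not measure the amount of FLAG-RIG-I protein in each group.

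The labelled cell type was checked on 8 melanocyte markers, all of them tested, of which Gpnmb was the most abundant. Their summed level was 8880, 8065 and 10702 CPM in shCtr, 10458, 13562 and 12386 CPM in shOSGEP#1, and 3717 and 4611 CPM in shOSGEP#2. None of the 8 was at 0 in these 8 libraries, while in the shallow library the sum was 2511 CPM with Mitf and Tyr at 0. At a Benjamini-Hochberg adjusted p under 0.01 in edgeR, 6 of the 8 fell in shOSGEP#2, Dct, Gpnmb, Mlana, Pmel, Sox10 and Tyr, against 3.89% of all genes tested, and the median log2 fold change was −1.42. In shOSGEP#1, Gpnmb rose, against 5.00% of all genes tested, Tyr fell, against 4.67%, and the median was −0.02. The 6 fibroblast markers, led by Col1a2, summed to 4.44, 6.16 and 7.22 CPM in shCtr, 5.15, 3.64 and 7.26 CPM in shOSGEP#1, and 16.5 and 39.1 CPM in shOSGEP#2, with Lum at 0 in all 8 libraries. In the shallow library they summed to 68.5 CPM, with 5 of the 6 at 0, Col1a2 among them. Sums stayed at or below 3.42 CPM for 6 haematopoietic markers, 2.18 CPM for 4 endothelial markers and 0.116 CPM for 4 keratinocyte markers in these 8 libraries. All of them were at 0 in the shallow library, where a count of 0 allows up to 5.27 CPM for a single gene. Marker levels therefore differed between the shRNAs, and their part in the results on ribosomal protein genes was not tested.

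Ribosomal protein mRNAs were among the most abundant RNAs in the shCtr immunoprecipitate. Per kilobase of transcript, the median ribosomal protein gene had 691 CPM in shCtr, against 10.6 CPM per kb for all tested genes. Of all tested genes, 99.4% had a lower shCtr level per kb than the median ribosomal protein gene. The highest level per kb belonged to Rplp1, a protein of the stalk that recruits translation factors, with 3304 ± 237 CPM per kb (SD, n = 3). Next came Rps2, at the mRNA entry site, with 2374 ± 189 CPM per kb (SD, n = 3). The shCtr values of these genes did not overlap, so their order held in every library. Rpl8 followed, below Rps2 in every shCtr library, with 1793 ± 75, Rplp0 with 1744 ± 21.6 and Rpl41 with 1682 ± 328 CPM per kb (SD, n = 3 each). These 3 overlapped as neighbours in the order, and 71 of all 76 adjacent pairs overlapped.

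At the other end stood Rpl36a with 92.2 ± 16.3, Rps15a with 75.1 ± 6.70 and Rpl22 with 40.3 ± 1.99 CPM per kb (SD, n = 3 each). The highest gene exceeded the lowest by a factor of 82.0. Levels per kb depend on the annotated transcript, and Rps15a was assigned a transcript of 5130 bases, while the median ribosomal protein gene had 804 bases. The place of Rps15a in the order is therefore uncertain.

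The summed share of all counts on ribosomal protein genes was lower with either shRNA against Osgep. It was 5.18%, 4.70% and 5.43% in shCtr, 4.22%, 3.93% and 3.62% in shOSGEP#1, and 3.75% and 3.62% in shOSGEP#2. The means with SD were 5.10 ± 0.370% in shCtr and 3.92 ± 0.297% in shOSGEP#1, of 3 libraries each, and 3.68 ± 0.0928% in shOSGEP#2, of 2 libraries. Every shCtr library lay above every knockdown library, and the knockdown groups overlapped. The shares depend on what else was in the library, and mitochondrially encoded RNA was one such part. It took 0.223%, 0.147% and 0.303% of the counts in shCtr, 0.347%, 0.445% and 2.96% in shOSGEP#1, and 0.211% and 0.268% in shOSGEP#2. With these RNAs taken out of the totals, the mean shares of ribosomal protein genes were 5.11%, 3.97% and 3.69% in the order shCtr, shOSGEP#1 and shOSGEP#2.

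Both subunits took part in the lower share. Over the same libraries, large subunit genes held a mean with SD of 3.10 ± 0.194% of the counts in shCtr, 2.37 ± 0.172% in shOSGEP#1 and 2.26 ± 0.0690% in shOSGEP#2. Small subunit genes held 2.00 ± 0.179%, 1.55 ± 0.126% and 1.43 ± 0.0238% in the same order. The ratio of large to small was 1.58, 1.58 and 1.49 in shCtr, 1.52, 1.53 and 1.55 in shOSGEP#1, and 1.60 and 1.57 in shOSGEP#2. The ranges of the ratio in shCtr and shOSGEP#1 overlapped, and 1 of the shOSGEP#2 values lay inside the shCtr range.

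**Figure D1:**
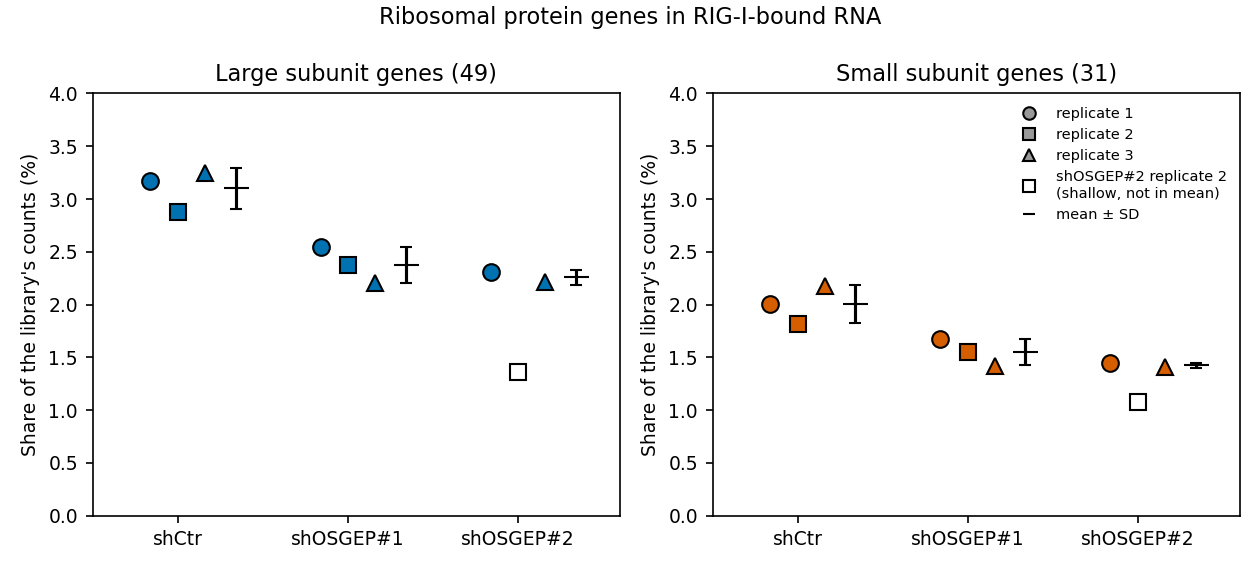
Share of all counts (percent, y axis) on large (49 genes) and small (31 genes) subunit genes in each library by group (x axis), with mean and SD of 8 libraries and the shallow shOSGEP#2 library as an open square. For both subunits the shCtr libraries lie above the libraries of shOSGEP#1 and shOSGEP#2.

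The first comparison asked which ribosomal protein mRNAs differed in RIG-I-bound RNA between shOSGEP#1 and shCtr. Log2 fold changes of the 77 tested genes had a median of −0.37, with quartiles of −0.47 and −0.25, against a median of 0.00 over all 12744 genes tested. They were negative for 71 of the 77 genes, as they were for 6357 of all genes tested. The spread among ribosomal protein genes was narrow, with an SD of 0.24 against 0.94 over all genes. In the most abundant of 5 classes of genes by level, which held 75 of the 77, the SD was 0.61. The SD of 0.24 was near the median standard error of 0.19 of a single ribosomal protein gene. The shift was thus small and shared, and few genes passed the test alone.

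At a Benjamini-Hochberg adjusted p under 0.01 in edgeR, 1 of the 77 genes, Rpl18, fell in shOSGEP#1, while 4.67% of all genes tested fell. DESeq2 on 8 libraries called 11 lower, against 7.11% of its genes, and limma voom on all 9 libraries called 16 lower, against 13.1%. The share of ribosomal protein genes called was thus below the background in edgeR and above it in both other tools. These backgrounds cover unlike sets, 12744 genes in edgeR, 15691 in DESeq2 and 12337 in limma voom. For DESeq2 and limma voom, no background at a like level was taken. At an unadjusted p under 0.05, 31 ribosomal protein genes were lower, against 16.9% of all genes tested. Of the 2549 genes in the most abundant of 5 classes, edgeR called 171 lower, and 579 were lower at the unadjusted p. After TMM scaling, the shOSGEP#1 libraries lay below all shCtr libraries for 40 ribosomal protein genes (51.9%), against 22.9% of all genes tested. They lay above for 1, Rpl22, against 22.4% of all genes tested. In the most abundant class, 27.4% of genes lay below and 26.0% above. edgeR called 0 ribosomal protein genes higher, against 5.00% of all genes, with 0 higher at an unadjusted p under 0.05, against 18.0%. DESeq2 and limma voom also called 0 higher, against 1304 of 15691 and 1699 of 12337 genes tested.

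Rpl18 (ENSMUSG00000059070), a protein of the large subunit, had 506, 471 and 634 CPM in shCtr and 371, 293 and 269 CPM in shOSGEP#1. All shOSGEP#1 values lay below all shCtr values. The level was 1.75-fold lower, a log2 fold change of −0.80 (SE 0.18, edgeR, Benjamini-Hochberg adjusted p = 0.00961). This call was close to the threshold: leaving out each library in turn gave an edgeR adjusted p, after Benjamini-Hochberg, from 0.00831 to 0.0437, and it was lost without shCtr replicate 1, 2 or 3 or shOSGEP#1 replicate 2 or 3. It was also lost with RLE or library-total scaling and with a term for the replicate number.

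Rpl23a, near the exit of the nascent chain, had the lowest log2 fold change of the 77 genes in shOSGEP#1. It had 621, 515 and 813 CPM in shCtr and 370, 291 and 389 CPM in shOSGEP#1. The groups did not overlap, with a log2 fold change of −0.91 (SE 0.23, edgeR, Benjamini-Hochberg adjusted p = 0.0160), short of the threshold. Over 7 other settings without the shallow library, leaving out single libraries apart, Rpl23a passed in 4. These were DESeq2 and edgeR without a filter on low counts, with only these groups fitted, or with a term for the replicate number. It also passed in limma voom on all 9 libraries. Rps14, a small subunit protein whose gene is lost in human 5q deletion syndrome, had 707, 710 and 1026 CPM in shCtr and 464, 594 and 315 CPM in shOSGEP#1. These groups did not overlap either, with a log2 fold change of −0.84 (SE 0.25, edgeR, Benjamini-Hochberg adjusted p = 0.0316). Rps14 passed in DESeq2, in limma voom on all 9 libraries and in edgeR without a filter on low counts.

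Only 6 of the 77 log2 fold changes were positive, for Rpl4, Rpl21, Rpl22, Rpl23, Rpl36a and Rps6. Those of Rpl4, Rpl23 and Rpl36a turned negative when single libraries were left out, and the other 3 did not. Rpl21 was the highest at 0.46 (SE 0.25, edgeR, Benjamini-Hochberg adjusted p = 0.210), from 166, 125 and 145 CPM in shCtr and 176, 139 and 291 CPM in shOSGEP#1. Its groups overlapped, and replicate 3 stood far above the other shOSGEP#1 libraries. Leaving out each library in turn moved the log2 fold change of Rpl21 between 0.10 and 0.67. Rpl22, which also binds viral and cellular RNA outside the ribosome, had 86.8, 82.3 and 78.6 CPM in shCtr and 94.6, 101 and 89.6 CPM in shOSGEP#1. All its shOSGEP#1 values were above shCtr, with a log2 fold change of 0.19 (edgeR, Benjamini-Hochberg adjusted p = 0.412). Rps6, the substrate of S6 kinase, had 660, 683 and 860 CPM in shCtr and 873, 688 and 959 CPM in shOSGEP#1. The groups overlapped, at a log2 fold change of 0.18 (SE 0.17, edgeR, Benjamini-Hochberg adjusted p = 0.502).

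The second comparison set shOSGEP#2, with 2 libraries, against the same shCtr libraries. The median log2 fold change of the 77 genes was −0.58, with quartiles of −0.71 and −0.45, against −0.06 over all genes tested. With all 9 libraries in the edgeR fit the median was −0.92, against −0.37 over all genes. With all 9 libraries and a term for the replicate number it was −1.13, against −0.61. On 8 libraries the log2 fold change was negative for 75 genes, Rpl22 and Rps20 being the exceptions, and for 6806 of all genes tested. Their SD of 0.22 compared with 1.21 over all genes and 0.61 in the most abundant of 5 classes. The median standard error of a single ribosomal protein gene was 0.22. The values of both comparisons rest on the same shCtr libraries, so they are not independent of each other.

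In shOSGEP#2, 4 of the 77 genes fell at a Benjamini-Hochberg adjusted p under 0.01 in edgeR, Rpl5, Rpl7, Rps24 and Rps25, while 3.89% of all genes tested fell. At an unadjusted p under 0.05, 53 were lower, against 17.9% of all genes tested. Of the 2549 genes in the most abundant of 5 classes, 200 fell at the adjusted p and 750 were lower at the unadjusted p. After TMM scaling, both shOSGEP#2 libraries lay below all shCtr libraries for 56 ribosomal protein genes (72.7%), against 28.5% of all genes tested, and above for 0, against 24.6%. In the most abundant class, 38.6% of genes lay below and 21.5% above. The number called higher by edgeR was 0, against 5.66% of all genes, with 0 at an unadjusted p under 0.05, against 17.7%. It was 0 in DESeq2 and limma voom as well, against 1346 of 15691 and 699 of 12337 genes tested. With all 9 libraries in the edgeR fit, every call of this and the other comparisons was lost: 0 ribosomal protein genes were called for shOSGEP#2, with 18 at an unadjusted p under 0.05, against 10.1% of all genes in that fit. DESeq2 on 8 libraries called 29 lower, against 6.75% of the genes it tested, and limma voom on all 9 libraries called 5, against 2.54%. With a term for the replicate number, edgeR on 8 libraries called 19 lower, while 517 of 12744 genes tested fell. Rpl5, Rpl7, Rps24 and Rps25 were among the 19. That term with all 9 libraries left 0 genes called.

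Rpl5 (ENSMUSG00000058558) binds the smallest ribosomal RNA of the large subunit and, outside the ribosome, the p53 regulator MDM2. It had 739, 809 and 824 CPM in shCtr, 568, 561 and 602 CPM in shOSGEP#1, and 364 and 467 CPM in shOSGEP#2. The 3 groups did not overlap, with shOSGEP#2 lowest. Against shCtr it fell 2.04-fold in shOSGEP#2, a log2 fold change of −1.03 (SE 0.16, edgeR, Benjamini-Hochberg adjusted p = 0.00149). It remained called in shOSGEP#2 without any one of the 8 libraries, where the edgeR adjusted p after Benjamini-Hochberg reached at most 0.00992. In shOSGEP#1 its log2 fold change was −0.47 (SE 0.14, edgeR, Benjamini-Hochberg adjusted p = 0.0347).

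Rpl7 (ENSMUSG00000043716), another large subunit protein, had 794, 827 and 830 CPM in shCtr, 662, 628 and 587 CPM in shOSGEP#1, and 437 and 510 CPM in shOSGEP#2. In these 8 libraries the groups did not overlap and shOSGEP#2 was lowest. Rpl7 fell 1.84-fold in shOSGEP#2, a log2 fold change of −0.88 (SE 0.15, edgeR, Benjamini-Hochberg adjusted p = 0.00230). The call was lost without shCtr replicate 2 or shOSGEP#2 replicate 1 or 3, with an edgeR adjusted p after Benjamini-Hochberg of at most 0.0139.

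Rps24 (ENSMUSG00000025290), a small subunit protein mutated in some cases of Diamond-Blackfan anaemia, had 573, 429 and 437 CPM in shCtr and 488, 396 and 417 CPM in shOSGEP#1. It had 261 and 236 CPM in shOSGEP#2. The shOSGEP#1 values overlapped shCtr, and both shOSGEP#2 values lay below the other groups. Rps24 fell 2.06-fold in shOSGEP#2 against shCtr, a log2 fold change of −1.04 (SE 0.19, edgeR, Benjamini-Hochberg adjusted p = 0.00309). That call was lost without shCtr replicate 1 or shOSGEP#2 replicate 3, with an edgeR adjusted p after Benjamini-Hochberg of at most 0.0310. In shOSGEP#1 the log2 fold change was −0.16 (SE 0.16, edgeR, Benjamini-Hochberg adjusted p = 0.531).

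Rps25 (ENSMUSG00000009927), a small subunit protein used by several viral internal ribosome entry sites, had 496, 389 and 550 CPM in shCtr and 383, 334 and 410 CPM in shOSGEP#1. It had 241 and 279 CPM in shOSGEP#2 replicates 1 and 3, below all libraries of the other groups, while shOSGEP#1 overlapped shCtr. Rps25 fell 1.97-fold in shOSGEP#2, a log2 fold change of −0.98 (SE 0.19, edgeR, Benjamini-Hochberg adjusted p = 0.00462). The call was lost without shCtr replicate 1 or 3 or shOSGEP#2 replicate 1 or 3, with an edgeR adjusted p after Benjamini-Hochberg of at most 0.0259. It was also lost when only shCtr and shOSGEP#2 were fitted, and in limma voom on all 9 libraries, which called Rpl5, Rpl7 and Rps24.

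**Figure D2:**
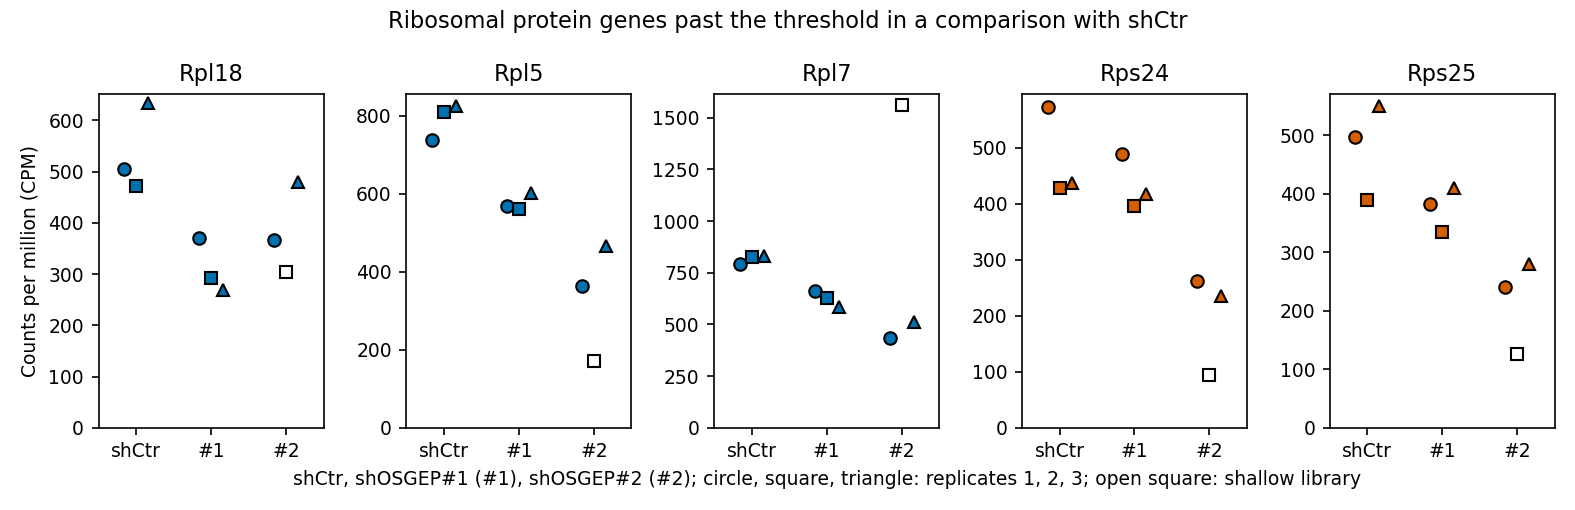
CPM (y axis) in each library by group (x axis) for Rpl18, Rpl5, Rpl7, Rps24 and Rps25, the ribosomal protein genes that passed an adjusted p under 0.01 against shCtr, with the shallow shOSGEP#2 library as an open square. Among the other 8 libraries, Rpl5 and Rpl7 are lowest in shOSGEP#2 and intermediate in shOSGEP#1, Rps24 and Rps25 are lowest in shOSGEP#2, and Rpl18 is lower in shOSGEP#1 than in shCtr.

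Rps4x, an X-linked protein of the small subunit, had a log2 fold change in shOSGEP#2 close to that of Rps24. It did not pass in edgeR on 8 libraries, and it passed in DESeq2 and in limma voom on all 9 libraries. It also passed in edgeR without a filter on low counts, with at least 10 counts in every library, and with a term for the replicate number. With only shCtr and shOSGEP#2 fitted, it passed too. Over 7 other settings without the shallow library, leaving out single libraries apart, its edgeR or DESeq2 adjusted p after Benjamini-Hochberg was at most 0.0163. Rps4x had 1319, 1271 and 1246 CPM in shCtr, 1106, 1110 and 661 CPM in shOSGEP#1, and 772 and 554 CPM in shOSGEP#2. Both knockdown groups lay below shCtr. The log2 fold change in shOSGEP#2 was −1.04 (SE 0.24, edgeR, Benjamini-Hochberg adjusted p = 0.0125), and its standard error was larger than that of Rps24 at nearly the same change. Rps20 was the highest of the 77 genes in shOSGEP#2, with 348, 375 and 418 CPM in shCtr and 432 and 457 CPM in shOSGEP#2, just above shCtr before TMM scaling. Its log2 fold change was 0.13 (SE 0.22, edgeR, Benjamini-Hochberg adjusted p = 0.712), and it turned negative with all 9 libraries in the fit. Rpl22 had 104 and 76.6 CPM in shOSGEP#2, on either side of the shCtr values, at a log2 fold change of 0.04. Rpl9 had 625, 533 and 535 CPM in shCtr, 432, 430 and 243 CPM in shOSGEP#1, and 660 and 389 CPM in shOSGEP#2. Its shOSGEP#2 values lay on both sides of shCtr, and without shOSGEP#2 replicate 3 the log2 fold change turned from −0.19 to 0.16.

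**Figure D3:**
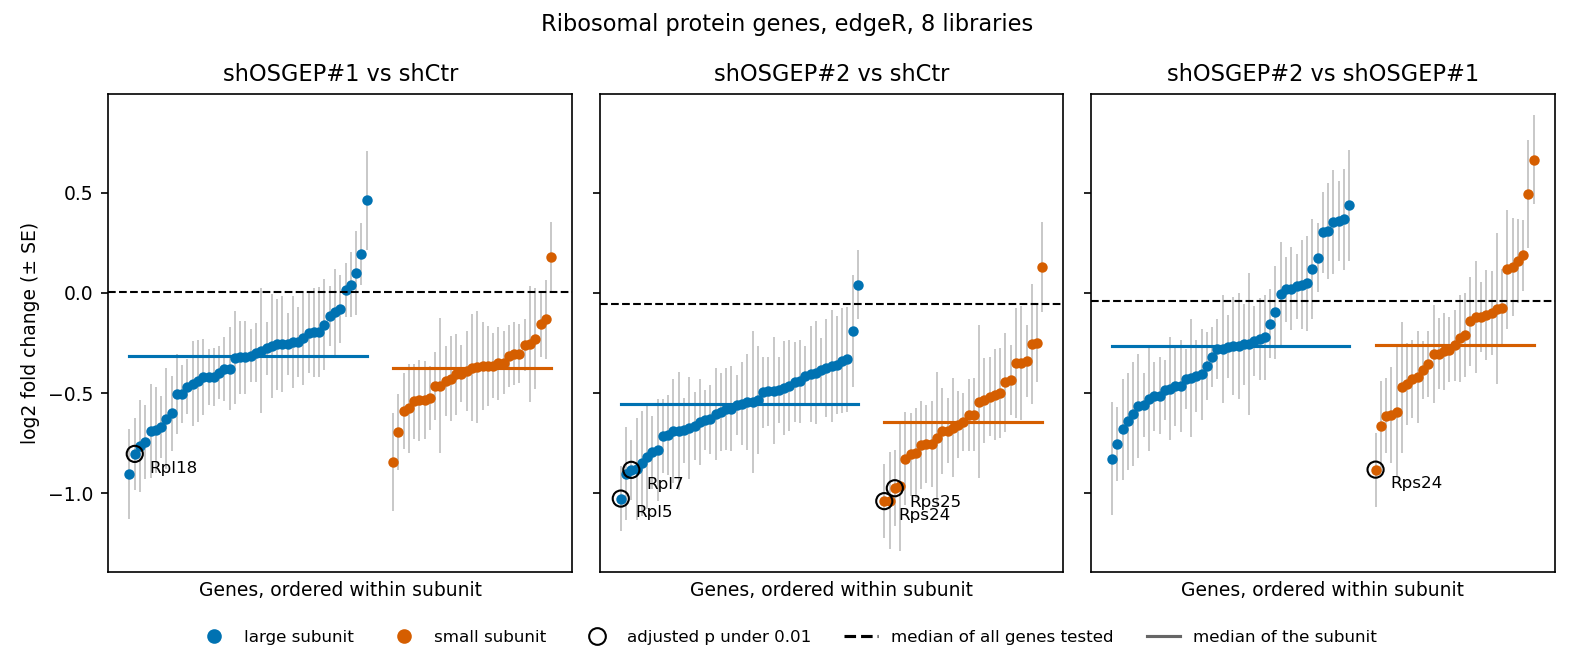
Log2 fold change with SE (y axis) of each tested ribosomal protein gene, large subunit (46) beside small subunit (31), in the 3 comparisons, with subunit medians as lines, the median over all genes dashed, and genes at an adjusted p under 0.01 circled. Medians were −0.32 and −0.37 for shOSGEP#1, −0.56 and −0.64 for shOSGEP#2, and −0.27 and −0.26 for shOSGEP#2 against shOSGEP#1.

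Large and small subunit genes moved by similar amounts. Against shCtr, the median log2 fold change in shOSGEP#1 was −0.32 for large and −0.37 for small subunit genes, a difference of 0.06. In shOSGEP#2 the medians were −0.56 and −0.64, a difference of 0.09. The difference of subunit medians varied between libraries within groups by a pooled SD of 0.0846. Neither difference therefore stood clear of the spread between replicates, and that for shOSGEP#2 took either sign when single libraries were left out.

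Counts split in the same way. In shOSGEP#1, 41 of 46 large and 30 of 31 small subunit genes had negative log2 fold changes, and in shOSGEP#2 these were 45 and 30. Libraries of shOSGEP#1 lay below all shCtr libraries for 50.0% of large and 54.8% of small subunit genes. For shOSGEP#2 the shares were 71.7% and 74.2%. Of the genes called, Rpl18 for shOSGEP#1 was large, and for shOSGEP#2 there were 2 large and 2 small ones.

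By role, the stalk proteins had negative log2 fold changes in both knockdowns and did not pass the test in edgeR, while DESeq2 and limma voom called Rplp0 lower in shOSGEP#1. Rplp0, the base of the stalk, had 2343, 2401 and 2362 CPM in shCtr, 1920, 1670 and 1138 CPM in shOSGEP#1, and 1839 and 1538 CPM in shOSGEP#2. Its log2 fold changes were −0.60 (SE 0.19, edgeR, Benjamini-Hochberg adjusted p = 0.0412) for shOSGEP#1 and −0.58 (SE 0.21, edgeR, Benjamini-Hochberg adjusted p = 0.0751) for shOSGEP#2. All knockdown libraries lay below shCtr, where Rplp0 was also the steadiest of the ribosomal protein genes, with an SD of 0.02 on the log2 scale. The log2 fold changes of Rplp1 were −0.50 and −0.46, and those of Rplp2 were −0.38 and −0.48, for shOSGEP#1 and shOSGEP#2 in turn. Stalk proteins thus had similar values with either shRNA.

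Rpl11, which forms a particle with Rpl5 and the smallest large-subunit RNA, had 311, 309 and 427 CPM in shCtr, 307, 240 and 399 CPM in shOSGEP#1, and 181 and 283 CPM in shOSGEP#2. Its shOSGEP#2 values were below shCtr, and its shOSGEP#1 values overlapped. Its log2 fold change was −0.16 (SE 0.23, edgeR, Benjamini-Hochberg adjusted p = 0.666) for shOSGEP#1, turning to 0.017 without shCtr replicate 3, and −0.69 (SE 0.26, edgeR, Benjamini-Hochberg adjusted p = 0.0810) for shOSGEP#2. Rpl10, which is added late in subunit maturation, had 999, 673 and 622 CPM in shCtr, 724, 690 and 511 CPM in shOSGEP#1, and 656 and 349 CPM in shOSGEP#2. Its groups overlapped in both comparisons, and shCtr replicate 1 stood above the other shCtr libraries.

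On the small subunit, Rps3 lines the mRNA entry channel. It had 866, 937 and 1177 CPM in shCtr, 735, 714 and 732 CPM in shOSGEP#1, and 515 and 747 CPM in shOSGEP#2, with no overlap between shCtr and either knockdown. Its log2 fold change in shOSGEP#2 was −0.76 (SE 0.19, edgeR, Benjamini-Hochberg adjusted p = 0.0190). Rpsa, also known as the laminin receptor, had 2299, 2305 and 2534 CPM in shCtr, 2102, 1842 and 2069 CPM in shOSGEP#1, and 1592 and 1659 CPM in shOSGEP#2. The groups were ordered without overlap, and the log2 fold change in shOSGEP#2 was −0.64 (SE 0.15, edgeR, Benjamini-Hochberg adjusted p = 0.0107), just short of the threshold. Over 7 other settings without the shallow library, leaving out single libraries apart, Rpsa passed in 2 for shOSGEP#2. These were DESeq2 and edgeR with a term for the replicate number, and Rps3 passed in the same 2. In limma voom on all 9 libraries, Rpsa passed and Rps3 did not.

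Rps27a, made as a fusion with ubiquitin, had 411, 403 and 512 CPM in shCtr, 365, 333 and 353 CPM in shOSGEP#1, and 264 and 356 CPM in shOSGEP#2. All knockdown values lay below shCtr, at log2 fold changes of −0.35 and −0.61 for shOSGEP#1 and shOSGEP#2. Rps19, the gene most often mutated in Diamond-Blackfan anaemia, had 523, 352 and 301 CPM in shCtr, 337, 348 and 175 CPM in shOSGEP#1, and 393 and 176 CPM in shOSGEP#2. Its groups overlapped, and it varied most within shOSGEP#2, with an SD of 0.86 on the log2 scale (n = 2).

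The most abundant genes per kb also had negative log2 fold changes. For Rps2 these were −0.53 and −0.34, for Rpl8 −0.74 and −0.44, and for Rpl41 −0.77 and −0.40, for shOSGEP#1 and shOSGEP#2 in turn. None passed the test in edgeR on 8 libraries after Benjamini-Hochberg adjustment, where the smallest adjusted p among them was 0.0157, for Rpl8 in shOSGEP#1. In that comparison, edgeR did call Rpl8 lower without a filter on low counts and without shOSGEP#1 replicate 1. Rpl41 was called lower there with only shCtr and shOSGEP#1 fitted. DESeq2 and limma voom called Rps2, Rpl8 and Rpl41 lower in shOSGEP#1 and none of them in shOSGEP#2. Rps15a, low per kb, had −0.54 and −0.75. Rpl36a, also low, had 0.10 and −0.54.

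The third comparison tested shOSGEP#2 against shOSGEP#1 directly. The median log2 fold change of the 77 genes was −0.27, against −0.04 over all genes tested, with 58 negative values. Without shOSGEP#2 replicate 3 the median was −0.13, against −0.04 over all genes, with 50 negative values. With all 9 libraries in the edgeR fit it was −0.65, against −0.35 over all genes. With all 9 libraries and a term for the replicate number it was −0.78, against −0.59. On 8 libraries the median was −0.27 for large and −0.26 for small subunit genes. The SD among ribosomal protein genes, 0.33, was larger than in either comparison with shCtr. The differences between the knockdowns thus varied more from gene to gene than those of either knockdown from shCtr, at a similar standard error of 0.21.

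In that comparison 1 of the 77 genes, Rps24, was lower at a Benjamini-Hochberg adjusted p under 0.01 in edgeR, beside 4.56% of all genes tested. At an unadjusted p under 0.05, 18 were lower, against 19.0% of all genes tested, and 1, Rps20, was higher, against 18.0%. The shOSGEP#2 libraries lay below all shOSGEP#1 libraries for 29 ribosomal protein genes (37.7%), against 26.1% of all genes tested, and above for Rps20 alone, against 23.6%. In the most abundant of 5 classes, 35.9% of genes lay below and 21.1% above. Of its 2549 genes, 230 fell at the adjusted p, and 733 were lower and 415 higher at the unadjusted p. The share of 37.7% was thus near that of the most abundant class. Of the counts from the test, that of lower genes at an unadjusted p was near the share over all genes and below that of the most abundant class. The others were below both. DESeq2 called 5 lower, against 7.97% of its genes, and limma voom on all 9 libraries called 0 lower, against 2.54%. All 3 tools called 0 higher, against 6.23% of all genes in edgeR, 1342 of 15691 in DESeq2 and 620 of 12337 in limma voom.

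The difference between shRNAs was −0.88 for Rps24 on the log2 scale (SE 0.19, edgeR, Benjamini-Hochberg adjusted p = 0.00654). The call was lost without shCtr replicate 2, without any one shOSGEP#1 library, or without shOSGEP#2 replicate 1 or 3, with an edgeR adjusted p after Benjamini-Hochberg of at most 0.0571. It was also lost when only these groups were fitted. Rpl21 differed by −0.83 (SE 0.28, edgeR, Benjamini-Hochberg adjusted p = 0.0561) and Rpl23 by −0.75 (SE 0.19, edgeR, Benjamini-Hochberg adjusted p = 0.0145). Rpl23, at the interface of the subunits, had 491, 379 and 393 CPM in shCtr, 404, 413 and 492 CPM in shOSGEP#1, and 297 and 249 CPM in shOSGEP#2. Both shOSGEP#2 values lay below the other groups, which overlapped. In the other direction, Rps20 differed by 0.66 (SE 0.22, edgeR, Benjamini-Hochberg adjusted p = 0.0515), from 301, 315 and 180 CPM in shOSGEP#1. Rps14 followed with 0.49. Rpl9 had 0.44, which turned to −0.034 without shOSGEP#2 replicate 1 and was 0.79 without replicate 3. None of these 5 passed the test in edgeR on 8 libraries, and Rpl23 passed in DESeq2 and in edgeR without a filter on low counts.

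Library by library, the direction of the shift was shared. Against the shCtr mean of log2 TMM-scaled CPM, the median ribosomal protein gene deviated by 0.04, −0.15 and 0.10 in shCtr, by −0.29, −0.32 and −0.45 in shOSGEP#1, and by −0.52 and −0.74 in shOSGEP#2. The values of the 3 groups did not overlap. Library medians varied within groups by a pooled SD of 0.121. In shCtr replicate 2, 70 of the 77 genes lay below the shCtr mean, so members also moved together among control libraries. The numbers below that mean were 69, 74 and 65 in shOSGEP#1 and 73 and 75 in shOSGEP#2.

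Mitochondrially encoded genes moved differently, with medians of 0.07, −0.58 and 0.56 in shCtr, 1.07, 1.05 and 5.92 in shOSGEP#1, and 0.31 and 0.88 in shOSGEP#2. Replicate 3 of shOSGEP#1 was the highest in these and the lowest of its group in ribosomal protein genes. The part of mitochondrial RNA in the ribosomal protein values was not tested beyond the shares without it.

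The spread of single genes within groups was close to that of all genes tested in shCtr and shOSGEP#1 and larger in shOSGEP#2. The median SD on the log2 scale was 0.21 in shCtr and 0.20 in shOSGEP#1 (n = 3 each), against 0.17 and 0.23 over all genes tested. In shOSGEP#2 (n = 2) it was 0.34 against 0.25, with 0.38 for large and 0.26 for small subunit genes. The range was from Rplp0 at 0.02 to Rps21 at 0.42 in shCtr and from Rps3 at 0.02 to Rps12 at 0.64 in shOSGEP#1. Large subunit genes thus spread more than small ones between the shOSGEP#2 libraries and slightly less in the other groups.

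The shallow shOSGEP#2 library, replicate 2, had a still lower share of ribosomal protein counts. It was 2.44% (95% Wilson interval 2.40% to 2.48%), with 1.37% on large and 1.07% on small subunit genes and a ratio of 1.27. Including it, the shOSGEP#2 mean was 3.27 ± 0.722% (SD, n = 3), still below the lowest shCtr library. Its Lars2 share was 6.79%, against 1.10% and 0.264% in the other shOSGEP#2 libraries and 0.0296%, 0.0109% and 0.0312% in shCtr. In shOSGEP#1 it was 0.0120%, 0.134% and 0.0706%. All shOSGEP#2 libraries and shOSGEP#1 replicates 2 and 3 thus stood above shCtr in Lars2, and its part in the ribosomal protein values was not tested.

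Depth is among the limits on single genes in that library, where 67.2% of all tested genes had 0 counts. By the floor of 3 counts, a count of 0 there allows up to 5.27 CPM, against at most 0.201 CPM elsewhere. It had 18 ribosomal protein genes at 0, of which 15 were counted in other libraries. From the other shOSGEP#2 libraries these 15 would have had 18.4 to 303 counts, the most for Rps26, which had at least 549.8 CPM in every shCtr library. All of these expected counts lie above the floor of 3 counts. Rpl7 had 888 counts, where the other shOSGEP#2 libraries would give 269. Such departures go beyond counting error at this depth, and their source was not tested. By exact Poisson 95% bounds, and this floor for a count of 0, 64 of the 80 genes lay below every shCtr library, against 53.3% of all genes tested, and 7 lay above, against 16.9%. In the most abundant of 5 classes of genes by level, which held 75 of the 77 tested ribosomal protein genes, 61.3% of genes lay below and 22.8% above. The most counted genes, Rps2, Rpsa and Rpl7, held 27.2% of its ribosomal protein counts.

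Of the called genes, Rpl7 had 1561 CPM in the shallow library, above every shCtr library and opposite to the other shOSGEP#2 libraries. Rpl5 had 170 CPM, Rps24 94.9 CPM and Rps25 127 CPM, all lower than in any other library. Rpl18 had 304 CPM. The fall of Rpl7 therefore held for shOSGEP#2 replicates 1 and 3 and not for replicate 2.

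Some ribosomal proteins and their paralogs have names outside the rule. Of 7 such genes, all tested, the median log2 fold change was −0.54 for shOSGEP#1, −0.82 for shOSGEP#2 and −0.11 between the shRNAs. Rpl22l1, the paralog of Rpl22, had 57.1, 61.0 and 65.5 CPM in shCtr, 25.4, 22.0 and 9.19 CPM in shOSGEP#1, and 31.3 and 27.4 CPM in shOSGEP#2. All knockdown libraries lay below shCtr, whereas Rpl22 had positive log2 fold changes, of which that for shOSGEP#2 turned negative, to −0.24, without shOSGEP#2 replicate 1. Rpl22l1 fell in shOSGEP#1 with a log2 fold change of −1.71 (SE 0.30, edgeR, Benjamini-Hochberg adjusted p = 0.00301). In shOSGEP#2 its value was −1.15 (SE 0.34, edgeR, Benjamini-Hochberg adjusted p = 0.0345). The other 6 genes passed the test in neither comparison with shCtr.

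Other pairs of paralogs had closer values. Rpl36a and Rpl36al had log2 fold changes of 0.10 and −0.05 in shOSGEP#1 and of −0.54 and −0.49 in shOSGEP#2. The signs for shOSGEP#1 turned when single libraries were left out. Rps27 and Rps27l had −0.69 and −0.44 in shOSGEP#1 and −0.54 and −0.52 in shOSGEP#2. Rpl7l1, a paralog of Rpl7, had −0.08 in shOSGEP#1 and −0.82 in shOSGEP#2. For Rpl3, Rpl10 and Rpl39, the paralogs Rpl3l, Rpl10l and Rpl39l were at 0 counts.

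mRNAs for elongation factors and some other proteins share the TOP element with ribosomal protein mRNAs. A list of 18 genes of translation and other TOP mRNAs, which also held Npm1, Hnrnpa1 and Vim, was tested whole. Their median log2 fold change was 0.12 in shOSGEP#1, where the ribosomal protein genes had −0.37, and −0.52 in shOSGEP#2. In shOSGEP#1, 0 of the 18 passed the test in edgeR, with 4 at an unadjusted p under 0.05 in either direction, against 34.9% of all genes tested. In shOSGEP#2, 3 of the 18 fell, Eef1a1, which brings tRNA to the ribosome, Eef1b2, its exchange factor, and Tpt1, against 3.89% of all genes tested. Eef1a1 had −0.98 (edgeR, Benjamini-Hochberg adjusted p = 0.00063), Eef1b2 −1.17 (edgeR, Benjamini-Hochberg adjusted p = 0.00131) and Tpt1 −0.94 (edgeR, Benjamini-Hochberg adjusted p = 0.00155).

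Among 28 genes of ribosome biogenesis, all tested, the medians were −0.05 and −0.31 for shOSGEP#1 and shOSGEP#2. Rrn3, a factor of RNA polymerase I, fell in shOSGEP#1 by 1.06 on the log2 scale (edgeR, Benjamini-Hochberg adjusted p = 0.00215). In shOSGEP#2, Nip7 fell by 0.71 (edgeR, Benjamini-Hochberg adjusted p = 0.00979). These were 1 of 28 in each comparison, against 4.67% and 3.89% of all genes tested. Of 13 regulators of ribosomal protein mRNA, 12 were tested, without Mycn, with medians of 0.09 and −0.24 for shOSGEP#1 and shOSGEP#2. In shOSGEP#1, Rptor rose by 0.65 (edgeR, Benjamini-Hochberg adjusted p = 0.00803), and Eif4ebp1, Mtor and Rps6ka1 fell, 4 of the 12 in either direction against 9.67% of all genes tested. Eif4ebp1, the translation repressor that mTOR inactivates, had −2.25 (edgeR, Benjamini-Hochberg adjusted p = 0.000182), and Mtor had −1.23 (edgeR, Benjamini-Hochberg adjusted p = 0.00143). In shOSGEP#2, edgeR called 0 of the 12, with 6 at an unadjusted p under 0.05 in either direction, against 35.6% of all genes tested.

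Proteins of the mitochondrial ribosome are encoded by other nuclear genes. The 78 tested ones had a median log2 fold change of 0.02 in shOSGEP#1, with 0 called by edgeR and 10 at an unadjusted p under 0.05, against 34.9% of all genes tested. In shOSGEP#2 the median was −0.28, and 2 of the 78, Mrps21 and Mrps27, fell, against 3.89% of all genes tested. Neither count exceeded the background. The cytoplasmic set thus had the lowest median of these lists in shOSGEP#1, other than the 7 names outside the rule, while in shOSGEP#2 all these lists had negative medians. No test was made between lists.

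Transcript length and abundance set the ribosomal protein genes apart from most genes. Of the 77, 70 were in the shortest of 5 equal classes of tested genes by annotated transcript length, at or below 1670 bases, and 75 in the most abundant of 5 classes by level. The 2520 genes of the shortest class had median log2 fold changes of −0.10 in shOSGEP#1 and −0.27 in shOSGEP#2. The 2549 genes of the most abundant class had −0.02 and −0.14. Ribosomal protein genes had lower medians than either class, at −0.37 and −0.58. The part of length in the shift was not tested further.

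The enzyme that holds Osgep modifies tRNAs reading codons that begin with A (ANN codons). Such codons made up a median of 33.5% of ribosomal protein coding sequences, 34.7% in large and 30.5% in small subunit genes, against 26.8% over 12592 tested genes with a coding sequence. They ranged from 20.0% in Rps29 to 66.7% in Rpl41, whose short protein is rich in lysine and arginine. Mitochondrial ribosomal protein genes had 26.6%. Across the 77 genes, which are not independent, Spearman correlations of ANN share with log2 fold change were 0.31 for shOSGEP#1 and −0.02 for shOSGEP#2, against 0.066 and −0.060 across 12592 tested genes. The sign was thus not shared between the shRNAs. Correlations of transcript length with log2 fold change across the 77 genes were −0.0070 and 0.0065, against 0.11 and 0.17 across the 12592 genes. Those of mean level were −0.26 and 0.069, against −0.033 and −0.056.

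Promoter sequences from RefSeq (GRCm38.p6, 250 bases before to 50 after the start) were found for 60 of the 80 genes. CCGGAAG, the core of ETS factor motifs, was present on either strand in a window of 41.7% of them, against 20.1% of 9887 other tested genes and 9.93% of all 27025 genes with a promoter window. AAGATGGC, the core of the YY1 motif, was present on either strand for 8.33%, against 5.25% and 3.19%. CTCTTTC, a pyrimidine stretch searched on the strand of the gene, was present for 21.7%, against 4.44% and 4.60%. A run of at least 8 pyrimidines within 10 bases of the start was present for 46.7%, against 17.2% and 16.1%. CTCTTTC and the run can overlap. Large and small subunit genes had CCGGAAG in 40.5% and 43.5% and the run in 45.9% and 47.8%, and CTCTTTC in 27.0% and 13.0%.

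Start regions are shown for the called genes with a window, since pyrimidine runs at the start mark TOP mRNAs and these genes fell. Each has 75 bases, 50 before and 25 after the start of the RefSeq entry, all on the plus strand of GRCm38.p6, at chr7:45718021-45718095 for Rpl18, chr5:107900478-107900552 for Rpl5, chr14:24490628-24490702 for Rps24 and chr9:44407664-44407738 for Rps25. Capitals mark CTCTTTC or the pyrimidine run near the start. Rps24 has another window, not shown, with no such run within 10 bases of its start, and Rpl7 has no window.
Rpl18: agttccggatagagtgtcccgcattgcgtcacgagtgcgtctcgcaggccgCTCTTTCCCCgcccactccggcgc
Rpl5: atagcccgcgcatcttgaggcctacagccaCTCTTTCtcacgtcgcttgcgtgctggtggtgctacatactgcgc
Rps24: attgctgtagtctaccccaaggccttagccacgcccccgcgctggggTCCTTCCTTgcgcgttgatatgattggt
Rps25: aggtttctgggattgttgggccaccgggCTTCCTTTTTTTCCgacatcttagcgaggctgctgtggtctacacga
Rpl18 and Rps24 have the run at or next to the annotated start, and that of Rps25 ends before it. Rpl5 has CTCTTTC before the start and no run within 10 bases of it. The matches are descriptions of these windows only.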

How the data were processed

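The authors deposited whole-number counts for 22396 genes in 9 RIP-seq libraries, which the labels trace to alignment with STAR and quantification with Salmon. Ensembl ids were matched to symbols for 22285 genes, and 111 had no match. Members and gene lists were chosen with earlier results of these data known. Counts were fitted with edgeR 4.0.16 in R 4.3.3 on 8 libraries (filterByExpr, TMM scaling, quasi-likelihood test, group means), with Benjamini-Hochberg adjustment over all 12744 genes tested and calls at adjusted p under 0.01. The replicate 2 library of shOSGEP#2 was left out for its depth. Alternatives used DESeq2 1.42.0, limma 3.58.1 (voom with sample weights), other scalings and filters, a replicate term, all 9 libraries, and leaving out each library. The fit was tested on simulated data. Named genes were Osgep and Ddx58, then ribosomal protein genes called against shCtr, the 3 highest and 3 lowest log2 fold changes per comparison, the 5 highest and 3 lowest shCtr levels per kb, a list by role, and paralog pairs. CPM are counts per 1000000 counts of the library, not TMM-scaled unless stated. Levels per kb used lengths from GENCODE M21, on an earlier build than the counts. Wilson and Poisson intervals (95%) and the floor of 3 counts cover counting error only, the floor standing in for the Poisson bound at 0. Shares, lengths and promoters were handled in Python 3.11.15 with pandas 2.3.3 and scipy 1.17.1.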

Additional observations from a re-analysis of the deposited data

Results flagged for a closer look

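In the direct test of shOSGEP#2 against shOSGEP#1, 9 of 135 tested genes of the ribosomal protein rule and 3 related lists differed at a Benjamini-Hochberg adjusted p under 0.01 in edgeR, against 10.8% of all genes tested, so their pooled number is not above the background. Rps24 was the ribosomal protein gene among them, with a log2 fold change of −0.88. Of the 18 genes of the elongation and TOP list, 4 were called, all lower with shOSGEP#2, against 4.56% of all genes tested. Eef1a1 had −0.84, Eef1b2 −1.32, Eif3l −0.77 and Tpt1 −1.02. Fbl, the methyltransferase of ribosomal RNA, had −1.06, from 0.19 in shOSGEP#1 and −0.87 in shOSGEP#2 against shCtr. Of the 12 tested regulators, 3 were called in either direction, against 10.8% of all genes tested. Larp4 had −1.15, while Eif4ebp1 had 2.198 and Mtor 1.36, both lower in shOSGEP#1. A further 5 of 78 genes of mitochondrial ribosomal proteins passed the same test, all lower with shOSGEP#2, against 4.56% of all genes tested.

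The shallow shOSGEP#2 library was outside the comparisons, and 7 ribosomal protein genes stood in it above every shCtr library by their exact Poisson 95% lower bound. By the same bound 16.9% of all 12744 genes tested stood above shCtr, so the number is below the background. Rpl7 had 1561 CPM against at most 829.9 in shCtr, Rps2 3230 against 2692, Rps14 1390 against 1026, and Rplp2 833 against 674. Rpl10a had 707 CPM against 511, Rpl22 300.5 against 86.8, and Rpl21 207 against 166. The bounds cover counting error only.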

How the results depend on the processing

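Of 1438 single-gene values under alternatives, 1301 kept direction and side of the threshold, 45 lost the call, 74 gained it and 18 turned sign. Calls are given as genes, then ribosomal protein genes, in the order shOSGEP#1, shOSGEP#2 and shOSGEP#2 against shOSGEP#1. They were 1232 and 1, 1217 and 4, and 1375 and 1 in edgeR on 8 libraries. DESeq2 gave 2419 and 11, 2405 and 29, and 2592 and 5. limma voom on all 9 libraries gave 3317 and 16 for shOSGEP#1 and 0 ribosomal protein genes between the shRNAs (edgeR 19 at an unadjusted p under 0.05), with Rpl36al at 0.060 for shOSGEP#1. edgeR on all 9 libraries gave 0 and 0 in each comparison (unadjusted p under 0.05: 620 and 4, 1240 and 18, 1325 and 2), medians of −0.92 and −0.65 for shOSGEP#2 against shCtr and shOSGEP#1 (all genes −0.37 and −0.35), a large minus small difference of 0.18, Rps20 at −0.13 and a share of 3.27%. Common dispersion was 0.420 there and 0.0692 on 8. The replicate term gave 1380 and 2, 1238 and 19, and 1393 and 4. With that term and all 9 libraries, chosen after seeing the data, edgeR gave 0 and 0 in each (unadjusted p under 0.05: 407 and 2, 787 and 20, 842 and 6), medians −1.13 and −0.78, a large minus small difference of 0.12 between the shRNAs, Ddx58 −0.19, Rps20 −0.15 and, between the shRNAs, Rpl9 −0.089. RLE and library totals gave 1256 and 1254 genes and 0 ribosomal protein genes for shOSGEP#1 in edgeR, DESeq2 11. No filter gave 1748 and 6, 1603 and 9, and 1803 and 2. Fitting only the groups compared gave 1495 and 4 for shOSGEP#1, and 737 and 0 between the shRNAs. Adjusted p under 0.05 gave 2797 and 13, 2674 and 29, and 2952 and 5. With 7 neighbouring names added, the share in shOSGEP#2 was 3.90%. Leaving out each library gave 318 (without shCtr replicate 2) to 1458 genes and 0 to 4 ribosomal protein genes for shOSGEP#1, 518 (without shCtr replicate 2) to 1471 and 1 (without shOSGEP#2 replicate 3) to 9 for shOSGEP#2, and 743 (without shOSGEP#2 replicate 3) to 1504 and 0 to 1 between the shRNAs. Medians ranged from −0.75 to −0.53 for shOSGEP#2 and −0.39 to −0.13 between the shRNAs, and large minus small in shOSGEP#2 from −0.056 to 0.13. In shOSGEP#1, Rpl11 ranged from −0.37 to 0.017, Rpl23 from −0.057 to 0.16, Rpl36a from −0.040 to 0.20 and Rpl36al from −0.18 to 0.17. In shOSGEP#2, Rpl22 ranged from −0.24 to 0.27 and Rpl9 from −0.66 to 0.16, and between the shRNAs Rpl9 from −0.034 to 0.79. The cause of these changes was not tested. Ribosomal protein genes called higher were 0 under every setting. The median of ribosomal protein genes stayed below that of all genes in each 8-library setting. Depth limits the values of the shallow library, which also departed from the other shOSGEP#2 libraries beyond counting error. The source of that was not tested. shOSGEP#2 otherwise has 2 libraries, so a lone one left in is assumed to vary like the other groups.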
